A study of Mus musculus with 4 samples.

Results

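Ccr7, Ccr9, Cxcr4, S1pr1 and S1pr4 encode receptors that steer T cells between blood, lymph nodes, gut and bone marrow, and Itgal, Itga4, Itgb1 and Itgb7 encode integrin subunits that hold T cells to vessel walls and to other cells. These 9 genes were followed in naive CD4+ T cells and after 3 h of culture towards induced regulatory T (iTreg) cells. They were taken by gene name, with every probe on the array, which gave 21 of 56605 probes and 9 of the 27192 genes with a name. Ccr7, Ccr9 and Cxcr4 had 2 probes each, Itgal and Itgb1 had 3, Itga4 had 6, and S1pr1, S1pr4 and Itgb7 had 1. The 4 conditions were the naive and the cultured stage of WT cells and of Nr4a-TKO cells, which lack the nuclear receptors Nr4a1, Nr4a2 and Nr4a3, and the question was how the genotypes differ before and early in the culture. Each condition was measured once, on a single-colour Agilent array that reads the brightness of dyed copies of each RNA.

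Naive cells were sorted from spleen and lymph nodes as CD4+, CD25 low, CD44 low and Foxp3-, among other criteria. The Nr4a-TKO marrow also carried a knock-in of human CD2 and CD52 at Foxp3. Whether the WT marrow carried it too is not given in the sources used here, although WT cells were also sorted as Foxp3-. Nr4a-TKO cells (Ly5.2+) came from mixed bone marrow chimeras, in which irradiated Rag2-/- recipients had received equal parts of Ly5.1+ WT and Ly5.2+ Nr4a-TKO marrow depleted of T cells. WT cells (Ly5.2+) came from recipients of WT marrow alone, so that the genotypes also differed in the other cells around them. Both were sorted 6 weeks after transplantation. The mice were C57BL/6J, of both sexes and 6 to 8 weeks old. The Nr4a-TKO line combined floxed Nr4a1 and floxed Nr4a2 with a germline Nr4a3 deletion, and its Cre driver is not given in the sources used here. For iTreg cells, naive cells were kept for 3 h on plate-bound anti-CD3 (2 µg/ml) with anti-CD28 (0.5 µg/ml), IL-2 (10 ng/ml), TGF-β1 (at 0.2 ng/ml or at 0.5 ng/ml, which of them is not given) and antibodies that block IFN-γ and IL-4. All cultured cells therefore carried T cell receptor stimulation as well as TGF-β1, and no array held cells with only 1 of them. How many animals stood behind an array is not given either.

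T cells circulate by turns of attachment and exit. On the way into a lymph node a naive T cell rolls along the vessel wall, is stopped by the integrin αLβ2 after a signal through Ccr7, and later leaves along a gradient of sphingosine 1-phosphate that it reads through S1pr1. The integrins α4β7 and α4β1 and the receptors Ccr9 and Cxcr4 serve other routes, to the gut, to inflamed vessels and to bone marrow. In resting naive T cells the transcription factors Foxo1 and Klf2 keep several of these genes on, and stimulation through the T cell receptor is known to switch the exit receptor off.

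Levels below are log2 values after background correction and a quantile normalization that gave the 4 arrays the same distribution of brightness. A level thus has meaning relative to the rest of the same array, and fewer cells of a type and less RNA per cell cannot be told apart. A difference of 1 on this scale is 2-fold, which was the threshold for calling a gene higher or lower. With 1 array per condition no difference has a replicate check, and none has a p-value. The number of arrays limits the precision. Probes that are spotted several times give only the error within an array, which came to an SD of 0.18 when 2 arrays were subtracted, or between 0.32 and 0.38 for probes with levels under about 6. Between 64.9% and 67.6% of probes were well above the local background on an array, and the 4 arrays lay on 1 slide read in 1 scan. Where a gene had several probes, the brightest over the 4 arrays stands for it, and probes are numbered from the brightest. All 9 genes were well above background on all 4 arrays in this probe.

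The 10 CD4 T cell markers, such as Cd3e and Cd4, were well above background on every array, with summed linear levels of 25762 and 25427 in WT and Nr4a-TKO naive T cells and 15202 and 12608 at 3 h. The median change over all genes was -0.06 for WT and -0.02 for Nr4a-TKO. The quantile normalization gave each array the same distribution, so this median could not show a fall of the whole array. The fall of the markers is thus one relative to the rest of each array. What it shares with the changes described below was not tested. The targeted genes went partly against the labels. Nr4a1 read 7.05 (labelled WT) and 8.39 (labelled Nr4a-TKO) in naive T cells, and 11.34 and 11.82 at 3 h. Nr4a2 read 6.24 and 6.44 in naive T cells and 8.83 and 10.21 at 3 h, so both genes were higher on the Nr4a-TKO-labelled arrays. The 3 Nr4a3 probes disagreed: at 3 h the brightest read 9.46 for WT and 9.65 for Nr4a-TKO, while the other 2 read 8.89 against 7.42 and 9.34 against 7.48. Where these probes lie relative to the removed exons is not given, so a probe outside the deletion would check nothing. For this reason every direction between genotypes below is one between arrays by their labels.

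Both sphingosine 1-phosphate receptors and both chains of the integrin α4β7 were lower at 3 h than in naive T cells by 3.94-fold or more in either genotype, while the other 5 genes stayed within 2.46-fold in their brightest probes. These sizes depend on the background correction. With an offset of 50 the changes for WT and Nr4a-TKO were -3.33 and -3.10 for S1pr1 and -1.79 and -1.17 for S1pr4. For the brightest Itga4 probe they were -2.13 and -2.11, and for Itgb7 -3.23 and -3.27. All of these were still past 2-fold. On the arrays labelled WT, 4 of the 9 genes were past 2-fold lower (S1pr1, S1pr4, Itga4 and Itgb7) against 9.01% of 19606 genes measured, and 0 were higher against 8.57%. On the arrays labelled Nr4a-TKO, the same 4 genes and Ccr7 were lower, 5 of 9 against 8.43% of 20010 genes, and Cxcr4 was higher, 1 of 9 against 8.01%. The median change of the 9 genes was -0.44 for WT and -1.20 for Nr4a-TKO, beside -0.06 and -0.02 for all genes.

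**Figure D1:**
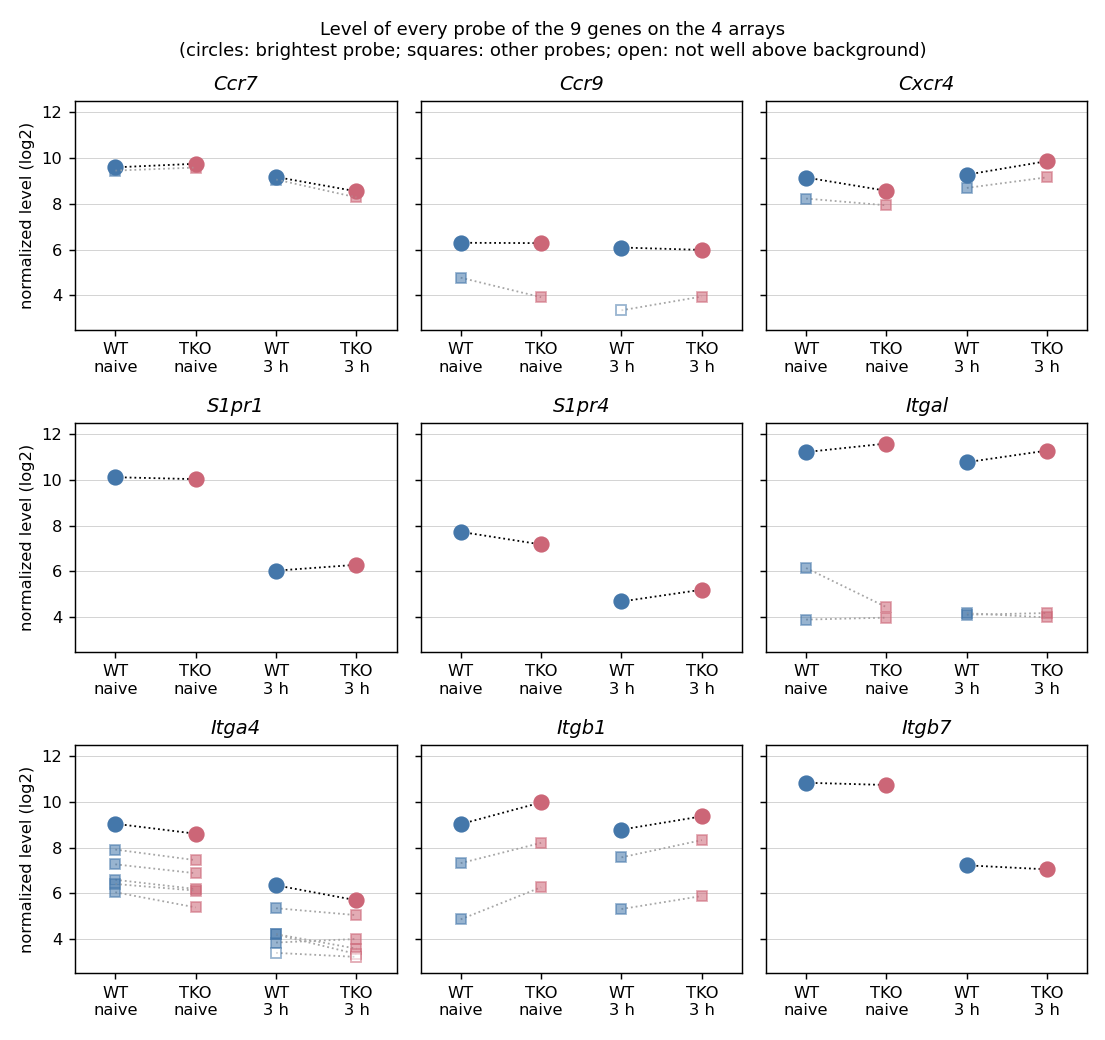
Normalized log2 level (vertical axis) of every probe of the 9 genes on the 4 arrays (horizontal axis, 1 array each). Blue marks arrays labelled WT and red arrays labelled Nr4a-TKO, circles stand for the brightest probe of a gene and squares for its other probes, open symbols are not well above background, and dotted lines join the genotypes of a stage. S1pr1, S1pr4, Itga4 and Itgb7 drop from the left pair to the right pair, while the brightest probes of Ccr9 and Itgal stay nearly level.

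S1pr1, the receptor through which T cells leave lymph nodes, showed the largest change of the 9 genes. Its probe (chr3:115414020-115414079 on mm9, designed on a RefSeq mRNA) read 10.12 in WT naive T cells, 10.03 in Nr4a-TKO naive T cells, and at 3 h 6.03 in WT and 6.29 in Nr4a-TKO cells. In the scanner's processed intensity these were 1081, 1002, 68.9 and 82.4 units. Both naive arrays thus read higher than both cultured arrays, with 1 array per genotype at each stage. The change was -4.08 for WT (17.0-fold lower) and -3.74 for Nr4a-TKO (13.4-fold lower), which placed S1pr1 at rank 16 from the lowest of 19606 genes in the WT comparison and at rank 30 of 20010 in the Nr4a-TKO comparison. The genotypes lay within 0.26 of each other at both stages.

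S1pr4, a sphingosine 1-phosphate receptor found mainly on lymphoid cells, was lower at 3 h as well. Its probe (chr10:80961501-80961560, mm9) read 7.73 and 7.18 in WT and Nr4a-TKO naive T cells and 4.69 and 5.20 at 3 h. The changes were -3.04 for WT (8.24-fold lower) and -1.98 for Nr4a-TKO (3.94-fold lower). The difference between the 2 changes, 1.07, was itself past 2-fold. It came from both stages, because the array labelled Nr4a-TKO was lower than WT by a log2 difference of -0.55 in naive T cells and higher by 0.51 at 3 h. With an offset of 50 in the background correction the difference between the changes was 0.62, and without background correction it was 0.85, so that neither passed 2-fold.

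Itgb7, the β7 chain that pairs with α4 for entry to the gut and with αE for holding to epithelium, read 10.83 and 10.73 in WT and Nr4a-TKO naive T cells and 7.22 and 7.05 at 3 h (chr15:102046450-102046509, mm9). The processed intensities were 1592, 1447, 155 and 128 units. Both naive arrays read higher than both cultured arrays, and the genotypes lay close at each stage. It changed by -3.61 for WT (12.2-fold lower) and by -3.69 for Nr4a-TKO (12.9-fold lower), and the difference between these changes was -0.08, within the error between repeated spots.

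Itga4, the α4 chain shared by α4β7 and α4β1, was lower at 3 h in each of its 6 probes. The brightest (chr2:79097898-79097957, mm9, designed on an Ensembl transcript) read 9.04 and 8.60 in WT and Nr4a-TKO naive T cells and 6.35 and 5.70 at 3 h. Its changes were -2.69 (6.45-fold lower) and -2.91 (7.51-fold lower). The second probe, on a RefSeq mRNA at chr2:79173193-79173252, read 7.91, 7.45, 5.35 and 5.05 in the same order. Over the 6 probes the change lay between -3.42 and -2.19 for WT and between -2.91 and -2.16 for Nr4a-TKO, where the values of 2 dim probes are bounds because an array of the cultured cells was not well above background. With an offset of 50, probes 5 and 6 were within 2-fold, at -0.98 and -0.93 for WT and -0.95 and -0.63 for Nr4a-TKO. In naive T cells all 6 probes read lower for the Nr4a-TKO label than for the WT label, by log2 differences between -0.66 and -0.29. At 3 h 4 of the 5 measured probes were lower as well, between -0.66 and -0.30 in 3 of them and at a bound of -0.86 in the other, where the Nr4a-TKO reading was not well above background.

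Both α4β7 chains and S1pr4 have a stretch before their start in the RefSeq promoter table of GRCm38.p6, and these are shown because the 3 genes were lower at 3 h together. They are the 250 bases before the annotated start, 5′ to 3′ on the gene's strand, at chr2:79255176-79255425 for Itga4 (plus strand), chr15:102231936-102232185 for Itgb7 (minus strand) and chr10:81500138-81500387 for S1pr4 (minus strand). Capitals mark CACCC, the core of the sites that Klf factors bind, or its complement GGGTG, searched on both strands.
Itga4: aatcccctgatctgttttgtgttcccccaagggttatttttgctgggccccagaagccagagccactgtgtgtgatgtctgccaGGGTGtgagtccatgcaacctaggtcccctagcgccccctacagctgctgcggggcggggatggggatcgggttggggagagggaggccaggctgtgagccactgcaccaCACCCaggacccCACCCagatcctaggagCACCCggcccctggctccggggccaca
Itgb7: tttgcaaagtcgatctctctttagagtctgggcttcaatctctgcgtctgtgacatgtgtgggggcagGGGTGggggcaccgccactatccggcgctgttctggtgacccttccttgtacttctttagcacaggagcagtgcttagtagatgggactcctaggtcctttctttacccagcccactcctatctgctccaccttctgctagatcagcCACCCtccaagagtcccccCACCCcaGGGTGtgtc
S1pr4: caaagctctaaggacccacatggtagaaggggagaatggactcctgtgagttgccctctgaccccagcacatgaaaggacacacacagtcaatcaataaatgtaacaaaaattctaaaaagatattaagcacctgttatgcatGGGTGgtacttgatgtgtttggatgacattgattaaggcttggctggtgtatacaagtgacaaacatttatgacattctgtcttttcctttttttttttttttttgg

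Itga4 and Itgb7 held 4 such matches each, Itgb1 held 2, and Ccr9, Cxcr4 and S1pr4 held 1. Of all 32851 windows of the same length, 52.0% held at least 1 and 2.14% at least 4. The Nr4a monomer site AAAGGTCA was not among the letters of any of the 6 windows (1.34% of all windows hold it), nor was the forkhead site GTAAACA (3.17%) or the Ets site CCGGAAGT (2.88%). These are matches of letters in a short window and say nothing of binding. Ccr7, S1pr1 and Itgal were not matched in the table.

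Ccr7, the chemokine receptor that brings naive T cells into lymph nodes, was past 2-fold lower at 3 h in Nr4a-TKO cells. Its probe 1 (chr11:99005551-99005610, mm9) read 9.59 and 9.75 in WT and Nr4a-TKO naive T cells and 9.17 and 8.54 at 3 h. Probe 2 (chr11:99005513-99005538) read 9.45, 9.58, 9.06 and 8.28. In both probes the array labelled Nr4a-TKO iTreg stood apart below the other 3. The changes in probes 1 and 2 were -0.42 and -0.39 for WT and -1.20 and -1.30 for Nr4a-TKO, and the differences between the 2 changes were -0.78 and -0.91. In the authors' deposited values the Nr4a-TKO change was -0.99, just inside 2-fold.

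Cxcr4, the receptor for the chemokine Cxcl12 of bone marrow and lymphoid stroma, was past 2-fold higher at 3 h in Nr4a-TKO cells. Its probe 1 (chr1:130485079-130485138, mm9) read 9.15 and 8.57 in WT and Nr4a-TKO naive T cells and 9.27 and 9.86 at 3 h. Probe 2 (chr1:130486114-130486173) read 8.23, 7.93, 8.69 and 9.16. The array labelled Nr4a-TKO was the lowest of the 4 in naive T cells and the highest at 3 h in both probes. The change was 1.30 in probe 1 (2.46-fold higher) and 1.22 in probe 2 for Nr4a-TKO, against 0.13 and 0.47 for WT. The difference between the changes was past 2-fold in probe 1 (1.17) and not in probe 2 (0.76), nor in the mean of the 2 probes (0.97).

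Cxcr4 and S1pr4 were the only ones of the 9 genes whose change differed between genotypes by over 2-fold, both with the higher value for Nr4a-TKO: 2 of 9, beside 1.72% of the 16734 genes for which this was measured, and 0 of 9 in the other direction beside 1.55%. The median difference between the changes was -0.08 over the 9 genes and 0.02 over all genes. This difference is made of the same 4 values per probe as the changes and the genotype differences, and adds no separate evidence to them.

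**Figure D2:**
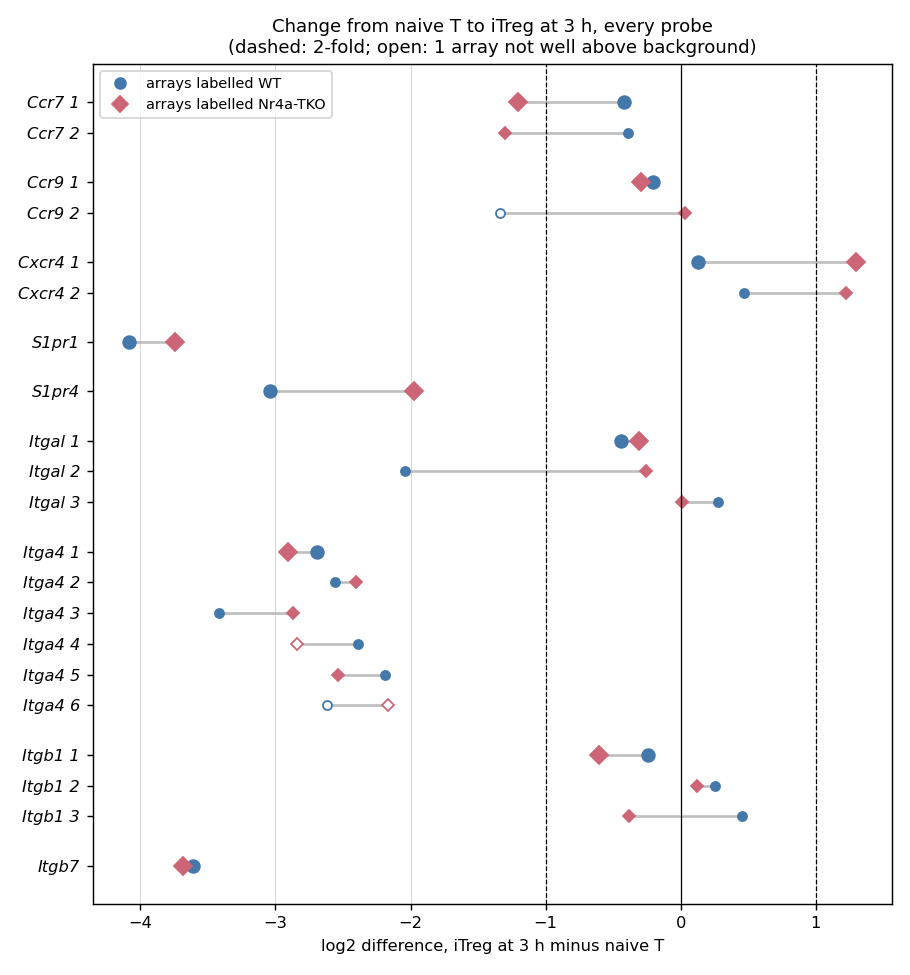
Log2 difference between iTreg at 3 h and naive T (horizontal axis) for each of the 21 probes (vertical axis, numbered from the brightest within a gene). Blue circles are the arrays labelled WT, red diamonds those labelled Nr4a-TKO, dashed lines mark 2-fold, and open symbols are bounds. All 6 Itga4 probes and the probes of S1pr1, S1pr4 and Itgb7 lie left of -1 in both genotypes, and the Cxcr4 probes lie right of 1 for Nr4a-TKO alone.

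Ccr9, which directs T cells to the small intestine, stayed level in its RefSeq probe (chr9:123690334-123690393, mm9), at 6.30 and 6.28 in WT and Nr4a-TKO naive T cells and 6.09 and 5.98 at 3 h. Its changes of -0.21 and -0.30 were close to the error between repeated spots. A second probe, on a cDNA at chr9:123680935-123680994, was dim, at 4.77, 3.92, 3.34 and 3.95, and the WT array at 3 h was not well above background there. It was lower for WT by a bound of -1.34 and differed by 0.03 for Nr4a-TKO, so the 2 probes disagreed for WT.

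Itgal, the αL chain of αLβ2 (LFA-1), read 11.22 and 11.59 in WT and Nr4a-TKO naive T cells and 10.77 and 11.28 at 3 h in its brightest probe (chr7:134477160-134477219, mm9). The array labelled Nr4a-TKO was the higher of the pair at both stages, by 0.37 and 0.51, and the changes to 3 h were -0.44 and -0.31. Its partner chain Itgb2 read 12.74, 12.51, 12.05 and 11.72, with changes of -0.69 and -0.79, so that neither chain of LFA-1 passed 2-fold in these probes. The other 2 Itgal probes, dim and designed on cDNAs, disagreed with each other, at -1.71 and 0.09 between the naive genotypes.

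Between the genotypes, 0 of the 9 genes were past 2-fold in either direction in naive T cells, beside 1.91% of genes higher for Nr4a-TKO and 1.63% lower. At 3 h the count was again 0 of 9, beside 1.76% higher and 1.93% lower. The median difference of the 9 genes was -0.09 in naive T cells and 0.26 at 3 h, beside -0.02 and 0.00 over all genes.

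Itgb1, the β1 chain of α4β1 and of the receptors for collagen, laminin and fibronectin, came closest to that threshold. Its brightest probe (chr8:131257001-131257060, mm9) read 9.02 and 9.97 in WT and Nr4a-TKO naive T cells and 8.78 and 9.36 at 3 h, differences of 0.95 (1.93-fold) and 0.58 (1.49-fold). Probe 2 (chr8:131250081-131255976, across an exon junction) read 7.32, 8.20, 7.57 and 8.32, and probe 3 (chr8:131250931-131255949, designed on a cDNA of the β1D splice form) read 4.86, 6.27, 5.31 and 5.88. In all 3 probes the array labelled Nr4a-TKO was higher than WT at both stages, by 0.88 to 1.40 in naive T cells and by 0.57 to 0.75 at 3 h. With the mean of the 3 probes the naive difference was 1.08, past 2-fold. The change to 3 h was within 2-fold in every probe and its sign differed among them.

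Probes 2 and 3 of Itgb1 are shown because they share part of their sequence, so that an RNA read by one can also be read in part by the other. Capitals mark the 23 bases that both hold.
Itgb1 probe 2: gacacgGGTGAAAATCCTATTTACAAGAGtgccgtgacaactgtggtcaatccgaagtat
Itgb1 probe 3: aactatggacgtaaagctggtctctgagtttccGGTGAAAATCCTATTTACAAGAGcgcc

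β1D is known as the form of striated muscle, and what probe 3 read here was not resolved further. It was the dimmest of the 3 probes on every array, although the brightness of different probes does not rank their RNAs.

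Itgb1 is also a marker of memory T cells. The 9 memory markers, Itgb1 among them, had a median genotype difference of -0.005 in naive T cells, with 4 above 0 and 5 below. At 3 h the median was 0.58, with 7 above 0 and 2 below. Some markers of memory T cells and of B cells differed between the genotypes. Of the 8 other memory T cell markers on the list, all were well above background on every array, and their summed linear level was 5584 and 5814 in WT and Nr4a-TKO naive T cells and 2376 and 4273 at 3 h. Among them in naive T cells Id2, a regulator of effector and memory fate, was higher for Nr4a-TKO (1.03) and S100a4, a calcium-binding protein of memory cells, was lower (-2.17). The 10 B cell markers were well above background on all arrays. Of these, 1 of 10 was past 2-fold higher for Nr4a-TKO in naive T cells, beside 1.91% of all genes. At 3 h the count was 3 of 10, beside 1.76%. The median differences were 0.49 and 0.65, and the sums 4143, 4832, 3206 and 4431. A large part of each sum came from 1 bright Cd22 probe, which read 11.26, 11.21, 10.94 and 11.09. Its genotype differences were small (-0.05 and 0.15), so the sums show less of a difference than the other markers do. The dimmer Cd22 probes gave 1.55, 0.61 and 0.18 in naive T cells and 0.69, 0.42 and 0.06 at 3 h. What the bright one read was not resolved. H2-Aa, a class II MHC chain, was higher by 1.61 in naive T cells, and at 3 h H2-Ab1 was higher by 1.38 and Cd79a, part of the B cell receptor, by 1.14. B cells and memory T cells also express several of the 9 genes, and the part of such cells in the differences between the genotypes was not tested.

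Other cells left weaker or incomplete signals. The sum for Cd8a and Cd8b1 went from 142 and 128 in WT and Nr4a-TKO naive T cells to 96.0 and 74.4 at 3 h, and that of the 4 Treg markers was 1008, 874, 1073 and 999.5. Foxp3, whose absence was one of the criteria of the sort, read 7.41 and 6.10 in naive T cells and 7.53 and 6.17 at 3 h. The defining markers Adgre1 (macrophages), Ncr1 (NK cells), Hbb-b1 (red cells), Pf4 and Gp9 (platelets) were not well above background on any array. Summed levels were 169, 119, 99.4 and 79.6 for the 6 NK markers, 302, 209, 191 and 237 for the 6 erythroid markers and 284, 304, 243 and 243 for the 5 platelet markers. The sum of the 8 myeloid markers was between 34702 and 39887. It came mostly from 1 bright Itgam probe (15.06 in WT naive T cells, where a second Itgam probe read 4.94). Csf1r, another myeloid marker, also read bright on the 4 arrays, and what it read was not resolved. Leaving out Itgam and Csf1r, chosen after their values were seen, gave 450, 254, 192 and 196.

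**Figure D3:**
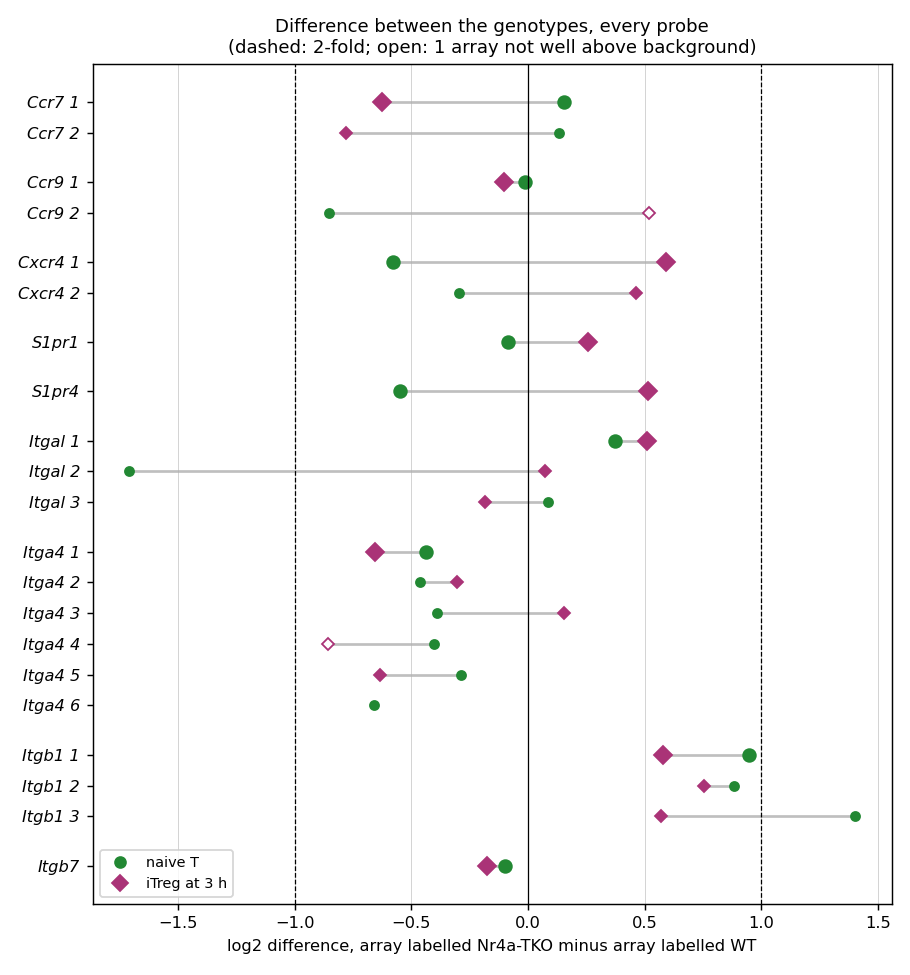
Log2 difference between the array labelled Nr4a-TKO and that labelled WT (horizontal axis) for each of the 21 probes, in naive T (green circles) and in iTreg at 3 h (purple diamonds), with 2-fold as dashed lines and bounds as open symbols. All 3 Itgb1 probes lie right of 0 at both stages, both Cxcr4 probes and S1pr4 cross 0 from left to right, and both Ccr7 probes cross it from right to left.

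Across the 4 arrays, the genes with profiles most like those of the 3 genes with the widest range were sought among 15627 genes well above background on every array. Likeness was the root mean square difference of the 4 log2 values, each profile centred on its own mean. For S1pr1 these were Acp5 (0.07), Treml2 (0.13) and Txnip (0.15), the last of them an inhibitor of thioredoxin. For Itgb7 they were Ddx58, the sensor of viral RNA known as RIG-I (0.09), Selenop, a selenium carrier (0.10), and Ifit1bl1 (0.12). For Itga4 they were Tmem63a (0.10), Vipr1, a receptor for vasoactive intestinal peptide (0.12), and Klf3 (0.15). Acp5 read 10.23, 10.24, 6.30 and 6.39 in the order used above. These few values per gene describe a shape and no more.

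Regulators of these receptors also differed between the stages. Klf2, the factor that drives S1pr1 in resting T cells, read 12.42 and 12.31 in WT and Nr4a-TKO naive T cells and 9.02 on both arrays at 3 h, changes of -3.40 and -3.29. Foxo1, which acts upstream of Klf2, read 9.60, 9.36, 7.84 and 8.30, with changes of -1.76 and -1.05, the second of which was -0.90 with the 75th percentile scaling. Cd69, a protein that binds S1pr1 and removes it from the cell surface, read 9.30, 9.23, 12.59 and 13.00, higher at 3 h by 3.30 and 3.78. Of the 20 genes of this list, 11 were past 2-fold lower and 3 higher at 3 h in both genotypes. Of all genes, 9.01% were lower and 8.57% higher for WT, and 8.43% and 8.01% for Nr4a-TKO. The share of all genes past 2-fold in both genotypes was not computed. With an offset of 50 the list had 10 lower and 2 higher for WT, and 9 and 2 for Nr4a-TKO. The GTPase Rac2 (-2.84 and -2.06), the arrestin Arrb1 (-2.29 and -2.83) and Arhgef1, an exchange factor for small GTPases (-1.96 and -2.07), were lower. Rgs1, which dampens chemokine receptor signals, was higher (1.33 and 2.09). Sphk1, which makes sphingosine 1-phosphate and is named here after its values were seen, was the 1 gene of the list past 2-fold between genotypes, at 1.01 in naive T cells and 1.30 at 3 h, and with an offset of 50 the list had 0 such genes. The list's median change was -1.37 for WT and -1.15 for Nr4a-TKO.

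A list of 22 genes that act on integrin activation held inhibitors, such as Rasa3, as well as activators. Of these, 12 were past 2-fold lower for WT and 10 for Nr4a-TKO, beside 9.01% and 8.43% of all genes. Of them, 9 were lower in both, a count with no share over all genes computed. In either genotype 0 were higher, beside 8.57% and 8.01% of all genes, and the medians were -1.02 and -0.92. With an offset of 50, 9 were lower for WT and 7 for Nr4a-TKO, with medians of -0.79 and -0.77. Rasgrp2, the exchange factor that switches on Rap1 ahead of integrins, changed by -3.86 and -3.08. The adaptors Skap1 (-2.91 and -2.33) and Fyb (-2.51 and -1.90), the kinase Stk10 (-2.56 and -2.64) and Cyth1, which binds the β2 tail (-2.48 and -1.79), were also lower. Rasa3, which turns Rap1 off, changed by -2.97 and -1.59 and was the 1 gene of the list past 2-fold between genotypes, higher by 1.43 on the array labelled Nr4a-TKO at 3 h, while its other 2 probes gave 0.79 and 0.20.

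Among adhesion genes Selplg, the ligand for P-selectin, changed by -2.94 and -1.95, and Cd96, a receptor for nectins, by -1.97 and -2.20. Cd44, whose product was one of the sort markers and is a receptor for hyaluronan, was past 2-fold higher at 3 h for Nr4a-TKO. It read 7.23, 7.45, 8.03 and 9.59, changes of 0.80 and 2.13, and was higher by 1.56 on the array labelled Nr4a-TKO at 3 h. Icam1, the ligand of LFA-1, was higher by 1.05 for WT and by at least 1.96 for Nr4a-TKO, and Cd226, an adhesion receptor, was higher by 1.08 on the array labelled Nr4a-TKO at 3 h. Both are dim, and these calls are lost with an offset of 50 (0.34, 0.66 and 0.56). Of the 18 genes of the list, 17 were measured. For WT 1 was higher and 5 lower, beside 8.57% and 9.01% of all genes. For Nr4a-TKO 2 were higher and 5 lower, beside 8.01% and 8.43%.

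Of 30 other chemoattractant receptors, 21 were measured for WT and 24 for Nr4a-TKO, with 4 past 2-fold higher and 1 lower in each. Of all genes, 8.57% were higher and 9.01% lower for WT, and 8.01% and 8.43% for Nr4a-TKO. The medians of the list were -0.05 and 0.01. Ccr8, a receptor of Th2 and Treg cells, was higher by 3.96 and 4.57, and Ccr4, a receptor of skin homing, by 1.87 and by at least 4.21, although a second, dim Ccr4 probe gave 0.39 and 0.20. With an offset of 50 the changes were 2.51 and 3.15 for Ccr8 and 1.04 and 2.00 for Ccr4. Gpr183, which guides cells by oxysterols, changed by -1.21 and -1.12, the second of which was -0.89 with an offset of 50. At 3 h Cxcr3, a receptor of Th1 cells, was higher for Nr4a-TKO by 1.30 and Cx3cr1, the fractalkine receptor, by 1.64, while Ccr10, a receptor of skin homing, was lower, at -1.24. These 3 are dim, and with an offset of 50 their differences were 0.56, 0.80 and -0.43.

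Of 22 other integrin subunits, 15 were measured for WT and 12 for Nr4a-TKO. For WT 1 was higher and 1 lower, beside 8.57% and 9.01% of all genes. For Nr4a-TKO 0 were higher and 2 lower, beside 8.01% and 8.43%. Itgb3, the β3 chain of the vitronectin receptor, was lower in both, at -1.24 and -1.15 in its brighter probe and -5.27 and -3.52 in the other. Itgb8, which with αV activates TGF-β, was well above background on the array of WT iTreg at 3 h alone in the probe used. Its WT change of at least 2.03 turned to -0.55 with the 75th percentile scaling, where another of its 4 probes stood for it, so it has no settled direction. Itgae, the αE partner of β7, changed by -0.63 and 0.24.

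**Figure D4:**
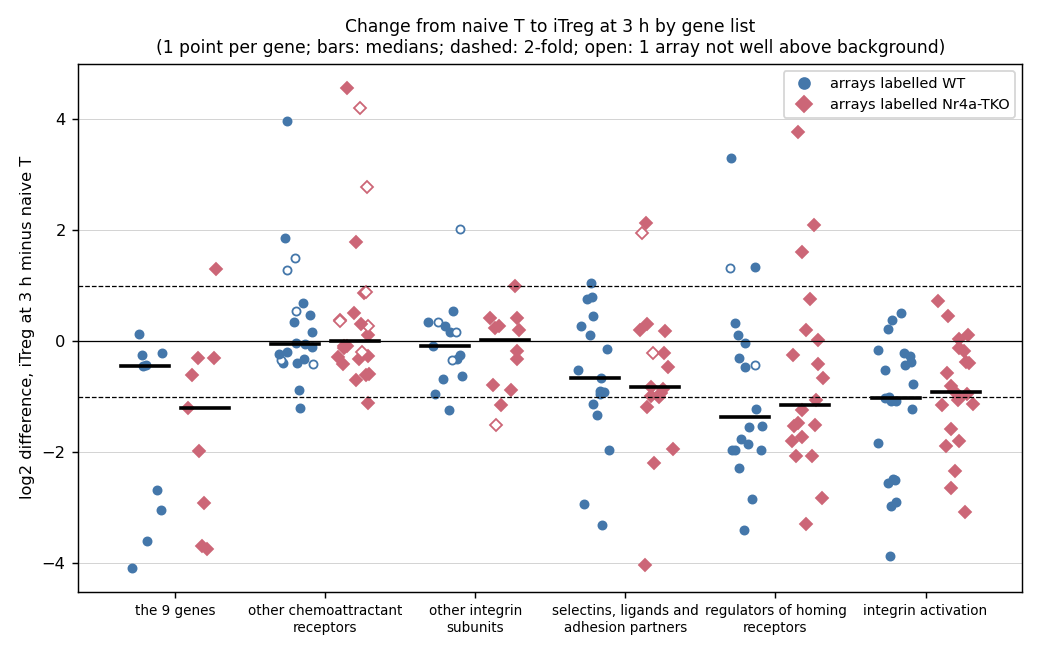
Log2 difference between iTreg at 3 h and naive T (vertical axis) for each gene of 6 lists (horizontal axis), with arrays labelled WT as blue circles and arrays labelled Nr4a-TKO as red diamonds. Black bars are medians, dashed lines mark 2-fold, and open symbols are bounds. The medians of the regulators (-1.37 and -1.15) and of integrin activation (-1.02 and -0.92) lie below those of the other chemoattractant receptors (-0.05 and 0.01).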

How the data were processed

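Total RNA of the 4 samples was labelled with Cy3 and hybridised to Agilent SurePrint arrays. Per the file headers and labels, the authors deposited Feature Extraction 11.5.1.1 output, with the mean and background intensity of each spot, a processed intensity and flags, and a log2 value table. Their methods name RMA in GeneSpring, whereas the deposited log2 values equal the processed intensity minus each array's 75th percentile (SD of the difference 0.0032 to 0.0038). Probe coordinates are on mm9.

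From the spot intensities, limma 3.58.1 in R 4.3.3 gave normexp background correction (offset 0), quantile normalization, log2 and the mean over a probe's spots, without control spots and the 115 to 160 flagged spots per array. Quantile normalization removes any change in total RNA. Of 56605 probes, 41700 carried a current symbol, 1518 were named by transcript and 520 by synonym from RefSeq, 2574 kept the files' name and 10293 had none. A probe not well above background on 1 array kept its own reading or took that array's lowest reading among probes well above background (3.07 to 3.45), whichever was higher, which makes its difference a bound.

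The 9 genes, the lists and the comparisons were chosen with earlier results of these data known. Named pathway genes passed 2-fold in both genotypes' changes or between genotypes, at most 6 per list. Klf2, Foxo1, Cd69, Cd44 and the profile neighbours were named whatever their values, and Itgb2 and Itgae were added as partner chains of αL and β7 outside the rule. Another gene named by this rule is not reported here. Alternatives were the 75th percentile scaling, the deposited values, an offset of 50, uncorrected background, the mean of a gene's probes, 2 other filters on dim probes, and thresholds of 1.5-fold and 3-fold. The steps were tested on simulated data.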

Additional observations from a re-analysis of the deposited data

Results flagged for a closer look

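Cxcr4 and S1pr4 are listed here because the genotype difference pointed in opposite directions at the 2 stages, each time by more than the SD between repeated spots (0.18). For Cxcr4 the array labelled Nr4a-TKO differed from that labelled WT by -0.58 in naive T cells and by 0.59 at 3 h, a shift of 1.17. Probe 2 of Cxcr4 gave -0.29 and 0.46. For S1pr4 the values were -0.55 and 0.51, a shift of 1.07. S1pr4 was dim at 3 h (4.69 and 5.20), where the SD between repeated spots was 0.32 to 0.38. With an offset of 50 its genotype difference at 3 h was 0.20. With 1 array per condition neither shift was tested.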

How the results depend on the processing

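No paired analysis was possible because each condition had 1 array, and for the same reason no replicate could be left out. Over 7 alternative normalizations, filters and probe rules, 259 of the 315 values of the 9 genes moved by less than the error between repeated spots. The other 56 moved by more, and 5 crossed 2-fold. The 2 filters on dim probes left 45 of 45 values each unchanged. They could not do otherwise, because no probe standing for a gene was dim enough for a filter to act. None of the values past 2-fold reversed, and a change of sign within 2-fold was not counted as a reversal. Among values within 2-fold, 5 of 45 signs differed with the mean of all probes, such as that of Itgal between naive genotypes (-0.42). In any other setting at most 1 of 45 did.

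With the 75th percentile scaling and with the deposited values the median change of the 9 genes was -0.25 and -0.23 for WT and -1.01 and -0.99 for Nr4a-TKO. With the mean of all probes the median was -0.82 for the WT change, -0.42 between naive genotypes and 0.34 for the difference between changes, and the count past 2-fold higher was 1 between naive genotypes (Itgb1) and 1 for the difference between changes. That last count was also 1 with an offset of 50 and with no background correction. At a threshold of 3-fold, 0 genes were higher in the Nr4a-TKO change and 0 in the difference between changes. At 1.5-fold, 1 was higher between naive genotypes, 1 higher and 2 lower between genotypes at 3 h, and 1 lower in the difference between changes. The cause of these moves was not tested, except that a threshold or probe rule sets its own count.

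Over all genes, an offset of 50 left fewer past 2-fold: 862 higher and 867 lower against 1680 and 1766 for the WT change, 760 and 759 against 1602 and 1687 for the Nr4a-TKO change, 92 and 74 against 372 and 318 between naive genotypes, 64 and 92 against 350 and 382 at 3 h, and 60 and 67 against 288 and 260 for the difference between changes. Signal over background limits the probes that 1 array did not measure, whose differences are bounds.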

Other observations

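Probes 2 and 3 of Itgal, both designed on cDNAs, share a run of 56 of their 60 bases (chr7:134474711-134474767 and chr7:134474706-134474766, mm9) and were well above background on all arrays. Probe 2 read 6.15 in WT naive T cells and 4.44, 4.11 and 4.18 on the arrays of Nr4a-TKO naive T cells, WT iTreg cells and Nr4a-TKO iTreg cells, whereas probe 3 read 3.90, 3.98, 4.17 and 3.99. The high value of probe 2 on the array of WT naive T cells was not seen in probe 3, nor a matching excess in the brightest Itgal probe, where the array labelled Nr4a-TKO naive T was the higher. It alone gave the log2 difference of -1.71 between the naive genotypes and of -2.04 for the WT change in that probe.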
